A study of Rattus norvegicus with 18 samples.

Results

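The negative side of the circadian clock was followed in 5 genes through the rat suprachiasmatic nucleus (SCN): Per2, Bhlhe40 (also called Dec1), Bhlhe41 (Dec2), Csnk1d and Timeless. They were read by every probe set whose single gene symbol in the array's annotation is one of these names, 6 of the 8799 probe sets of the array. Csnk1d had 2 probe sets and the other genes 1 each. The SCN came from adult male Long-Evans rats kept in 12 h of light and 12 h of dark. From the usual start of the dark phase (circadian time, CT, 12) they stayed in constant darkness. Killing began 12 h later, at CT 0, and went on every 6 h. All rats had this one treatment, so the groups differ only in time: 0, 6, 12 and 18 h (day 1) and 24, 30, 36 and 42 h (day 2), with RNA of 5 rats pooled at each of the 8 time points and 45 rats in the study, more than these pools hold. Circadian profiling is the stated aim, and an immortalised SCN cell line, its counterpart in the title, was not analysed here. Intensities were read on 18 one-colour rat U34A GeneChips, 10 in a first run, where the 24 h and 36 h time points had a pair of arrays (a and b), and 8 in a technical repeat that read each time point once.

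In the mammalian clock, the activators CLOCK and BMAL1 bind E-box sequences and switch on the Per and Cry genes, whose proteins return to the nucleus and repress their own activators. PER2 is a core subunit of that repressor complex, and its gene also responds to light through CREB. BHLHE40 and BHLHE41 are helix-loop-helix proteins that occupy E-boxes themselves and form a further repressive arm. Casein kinase 1 delta, the product of Csnk1d, phosphorylates PER proteins and so sets their stability and the pace of the cycle. TIMELESS of mammals travels with the DNA replication fork and also binds PER and CRY proteins. In the rodent SCN, Per2 is known as one of the rhythmic transcripts of the clock, while the Csnk1d transcript is usually described as constant.

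Promoter matches to E-box letters in Per2, Bhlhe40 and Bhlhe41 are shown because the results turn on how their transcripts moved with the time of day. RefSeq promoters (build GRCr8, 250 bases before to 50 bases after the listed start) were found for 4 of the 5 genes. They were searched on both strands for the E-box CACGTG, the variant E-box CACGTT and the core of the CREB site TGACG, of which none overlapped another. The E-box occurred in 6.42% of the 33469 RefSeq promoters of that length, the variant in 4.83% and the CREB core in 21.2%. Bhlhe40 and Bhlhe41 each had 1 E-box, 220 and 48 bases before the start. Per2 had 1 variant E-box 62 bases before it and 1 CREB core 38 bases after it, and the Timeless promoter held none of the 3. Each stretch below holds 30 bases, read 5′ to 3′ on the gene's strand, with the match in capitals.
Per2, chr9:99497038-99497067, minus strand: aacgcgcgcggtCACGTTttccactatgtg
Bhlhe40, chr4:143174218-143174247, plus strand: agcgttgtccaaCACGTGagactcatgtga
Bhlhe41, chr4:180569386-180569415, minus strand: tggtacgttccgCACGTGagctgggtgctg
The stretches of Per2 and Bhlhe41 lie inside the longest annotated span of their genes, which starts upstream of the listed start. That of Bhlhe40 lies before its gene. In GRCr8 the genes span chr9:99454828-99497069 (Per2), chr4:143174450-143180150 (Bhlhe40), chr4:180565003-180569415 (Bhlhe41), chr10:106713497-106754953 (Csnk1d) and chr7:1239388-1263344 (Timeless). A match of these letters describes the sequence and is no measurement of binding. Which exons the array's probes read was not used here.

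The trimmed mean was nearly the same on all arrays as deposited, 500.69 to 500.85. The median intensity was 136.5 to 152.3 in the first run and 107.9 to 127.6 in the repeat. In 3 first-run arrays, those at 12 h, 18 h and 36 h b, the hybridisation controls (RNA added at a fixed amount) read 4801 to 6370, against a median of 2260 over the run and at most 2320 in the repeat. The first-run array at 18 h stood apart most: it was the lowest of the 8 first-run time points for 23.1% of the tested probe sets and the highest for 20.02%, where equal shares would be 12.5%. SCN markers were present but incomplete. Of 12 listed, 7 were on the array, and Avp, Gal, Cck and Sst lay above the level filter, whereas Vip (49.0), Vipr2 (113) and Lhx1 (14.9) lay below its 121. The summed intensity of those 7 markers was 7004 to 16131 over the arrays of the first run and 5632 to 8178 over those of the repeat. Other cell types were read too. The geometric mean level of the markers was 284 for SCN, 430 for neighbouring neurons, 536 for astrocytes, 3123 for oligodendrocytes and 99.2 for microglia. From the first run to the repeat the median sum fell for SCN (11668.5 to 6615) and neighbouring neurons (5927 to 4745). It also fell for microglia (872 to 530) and choroid plexus (300 to 253). It rose for oligodendrocytes (27287 to 29830), astrocytes (5712 to 6894) and vessels (475.5 to 619). The runs are taken to read the same pools, so these shifts lie between readings and not between tissues. Between time points of pooled tissue, a smaller number of cells and less RNA per cell cannot be told apart. Each time point had 1 pool, so p-values cover only how far these pools scatter about a fitted curve.

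Per2 showed no difference between phases beyond the spread of the pools, and its largest departure was a single low reading at 18 h. On day 1 of the first run the Per2 probe set (AB016532_at) read 185 at 0 h, 167 at 6 h, 179.7 at 12 h and 68.4 at 18 h, and on day 2 it read 171 at 24 h, 147 at 30 h, 158 at 36 h and 250.4 at 42 h. In the technical repeat the readings of the same pools were 411, 332, 580.5 and 329 on day 1 and 468, 359, 464 and 401 on day 2. The lowest repeat reading, 329, thus exceeded the highest first-run time point, 250.4, and the runs did not overlap. Averaged over the runs on the log2 scale, the pools at CT 0 read 276 and 283 and those at CT 6 read 236 and 229. Pools of the same phase were close there (SD on the log2 scale 0.03 at CT 0 and 0.03 at CT 6, n = 2 pools each). At CT 18 they were far apart, 150.0 on day 1 and 317 on day 2 (SD 0.76), so that the lowest and the second highest pool had the same phase. The low value came from the first-run array at 18 h that stood apart above. That array also had the highest 3'/5' ratios of all 18, a sign of RNA or labelling quality: 20.9-fold for actin against a first-run median of 5.43, and 35.2-fold for GAPDH against 26.3. Values without the 18 h pool and without this array are given below, and the part of RNA quality in the result was not tested.

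**Figure D1:**
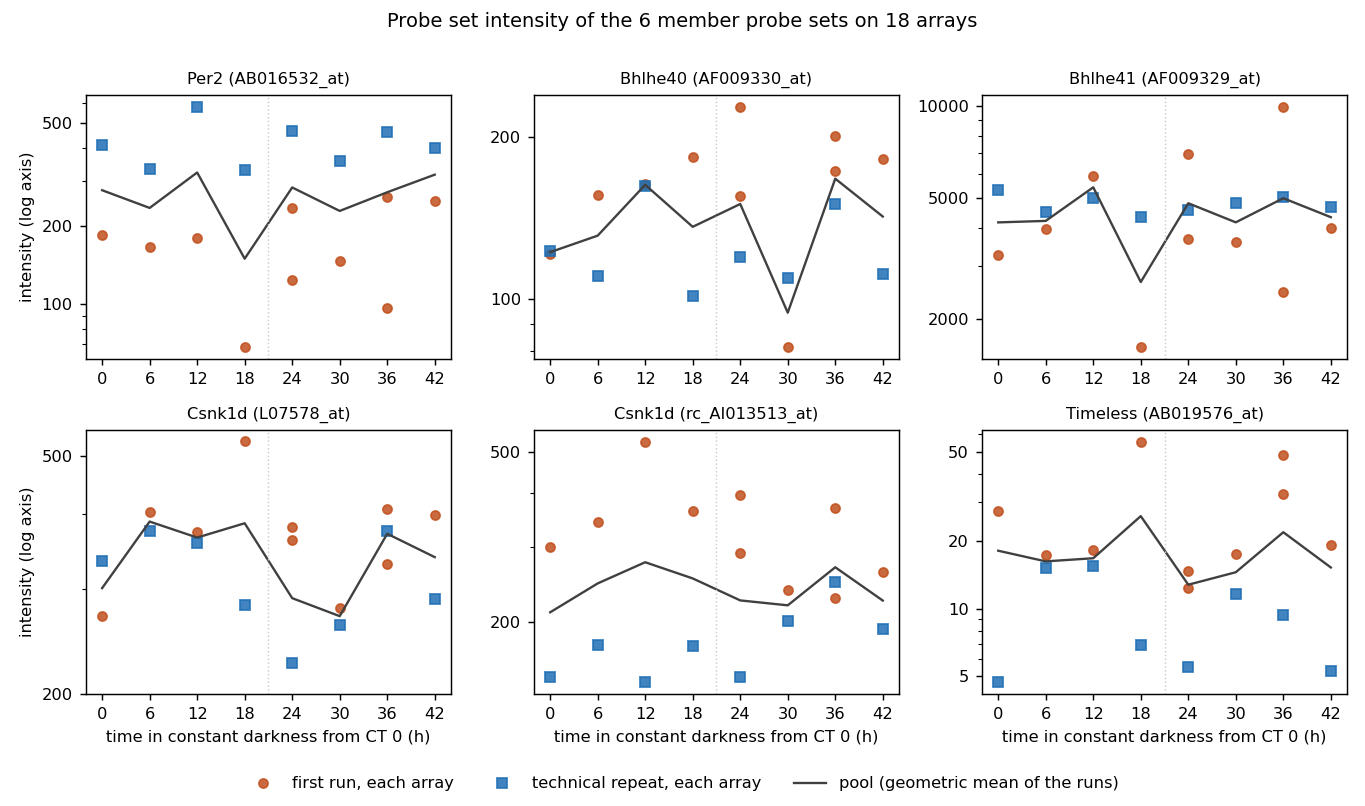
Intensity (log axis) against time from CT 0 (h) for the 6 probe sets; circles are first-run arrays, squares technical-repeat arrays, the line joins the geometric mean of the runs per pool, with low values raised to 12.1, and the dotted line separates the days. Per2 squares lie above all Per2 circles, Bhlhe41 squares stay between 4332 and 5323, and 6 of 8 Timeless squares lie under 12.1.

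Bhlhe40, the repressor also induced by many outside stimuli, was read near the level filter. Its probe set (AF009330_at) read 121, 156, 163.5 and 183 over day 1 of the first run and 188, 81.4, 187 and 182 over day 2. The repeat gave 123, 110.1, 162 and 101 on day 1 and 119.7, 109, 150.0 and 111 on day 2. The runs agreed at 0 h and at 12 h, but the first run was high at CT 18 (183 and 182), where the repeat was low (101 and 111). The pools at CT 12 read 163 and 167, and the other 6 pools lay between 94.3 (30 h) and 150.1 (24 h).

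Bhlhe41 was the steadiest of the 6 in the repeat and widely scattered in the first run. In the first run its probe set (AF009329_at) read 3251, 3946, 5882 and 1624 on day 1 and 5060, 3592, 4954 and 3998 on day 2, a 3.62-fold range. The repeat readings of those pools were 5323, 4485, 4997 and 4332 on day 1 and 4566, 4821, 5031 and 4682 on day 2, all within 1.23-fold. In 2.75% of the tested probe sets the highest and lowest repeat readings were at most as 5 to 4. The SD over the time points was 0.57 on the log2 scale in the first run and 0.10 in the repeat, a ratio of 5.81, where the median ratio over all tested probe sets was 1.33. A first-run SD at least 5 times the repeat SD occurred in 0.892% of them. Arrays a and b at 36 h read 2462 and 9968, which is 4.05-fold apart, and 4.58% of the tested probe sets differed there by at least 4-fold. The array b at 36 h and the low array at 18 h (1624) are both among the 3 with high hybridisation controls. At 24 h, where neither array is, a and b read 3664 and 6988, which is 1.91-fold apart. Of the pool means, 2652 at 18 h was the lowest and 5421 at 12 h the highest.

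**Figure D2:**
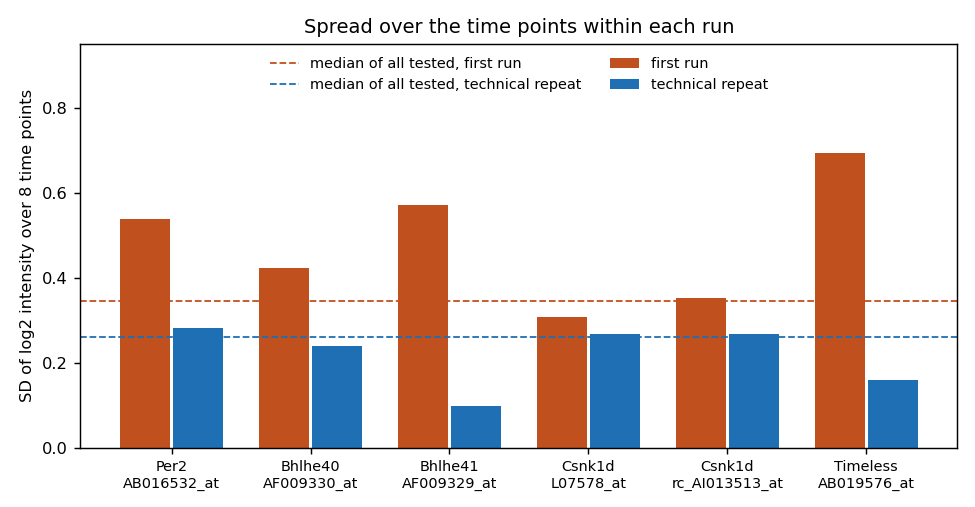
SD of log2 intensity over the 8 time points for each probe set; orange bars are the first run, blue bars the technical repeat, and dashed lines the medians over all tested probe sets (0.35 and 0.26). Bhlhe41 has 0.57 in the first run and 0.10 in the repeat. All 6 probe sets have the larger SD in the first run. Over all tested probe sets the median ratio, first run over repeat, is 1.33 (quartiles 0.93 and 1.86). For Timeless, 6 repeat readings were raised to 12.1, which narrows its repeat SD.

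The 2 probe sets of Csnk1d gave like time courses as pool means but not within a run. L07578_at read 271, 403, 374 and 529 on day 1 of the first run and 371, 279, 367 and 398 on day 2. In the repeat it read 334.5, 374, 357 and 281.5 on day 1 and 226, 261.5, 374.5 and 289 on day 2. Its highest first-run value, 529, again came from the 18 h array, where the repeat had read 281.5. The other probe set, rc_AI013513_at, read 298.5, 342, 527 and 363 on day 1 of the first run and 338, 237, 290.05 and 261.5 on day 2. In the repeat it read 148, 177, 144 and 176 on day 1 and 149, 201, 248 and 192 on day 2. The 12 h pool was thus the highest of the first run (527) and the lowest of the repeat (144) for this probe set. Over the 8 pool means the probe sets correlated with r = 0.79 (exact permutation p = 0.0301, two-sided, 0.271 after Benjamini-Hochberg adjustment over the 9 relations computed; Spearman's rho = 0.64, exact p = 0.0962). Without the 2 pools farthest from the median r was 0.78. Within the first run r was 0.41 (exact permutation p = 0.302) and within the repeat 0.20 (p = 0.629). Whether these probes also read other casein kinase 1 genes was not tested.

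Timeless lay at the limit of the measurement. Its probe set (AB019576_at) had a geometric mean of 17.3, above 9.75% of the probe sets, and 6 of its 18 readings, all in the repeat, were at or below the floor of 12.1 to which low values were raised. It was therefore below the level filter and is given from the fit over all probe sets. First-run readings were 27.2, 17.4, 18.2 and 55.3 on day 1 and 13.5, 17.5, 39.7 and 19.3 on day 2. The values of 55.3 and 39.7 rest on arrays with high hybridisation controls, except array a at 36 h (32.5). In the repeat the 6 h and 12 h readings, 15.2 and 15.5, were the ones above the floor. For most time points the repeat thus gives only an upper limit.

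No member had a 24-h rhythm past the threshold. Limma fitted a cosine and a sine to the 8 pools, and p-values were adjusted by Benjamini-Hochberg over all 4370 tested probe sets, of which 0% passed 0.05 and 6.36% (278) had an unadjusted p under 0.05. The amplitude, the log2 distance from the fitted mean to the peak, was 0.06 ± 0.17 for Per2 (SE, n = 8 pools; limma adjusted p = 0.980). It was 0.22 ± 0.12 for Bhlhe40 (limma adjusted p = 0.794) and 0.19 ± 0.14 for Bhlhe41 (0.830). For Csnk1d it was 0.18 ± 0.10 on L07578_at (limma adjusted p = 0.801) and 0.16 ± 0.09 on rc_AI013513_at (0.788). Single pools and runs moved these amplitudes without any passing. Per2 had 0.24 without the 18 h pool (limma adjusted p = 0.730), 0.20 without the 42 h pool and 0.23 without the 3 arrays with high hybridisation controls. Bhlhe41 had 0.35 in the first run alone, 0.026 in the repeat alone, 0.125 without the 18 h pool and 0.10 without the 3 arrays. Bhlhe40 had 0.36 in the first run alone and 0.14 without the 30 h pool, and rc_AI013513_at 0.052 without the 3 arrays. The median amplitude over all tested probe sets was 0.16, and 4 of the 5 member values lay above it. Timeless had 0.25 ± 0.15 (limma adjusted p = 0.809 over all probe sets). None of the 5 tested probe sets was among the 278.

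Exact permutation tests over the 8 pools gave the same calls. The smallest p they can give is 0.00317. Cosine and sine took 1.77% of the variance of the Per2 pools (exact permutation p = 0.994), 38.3% for Bhlhe40 (p = 0.308), 20.8% for Bhlhe41 (p = 0.654) and 33.0% for Timeless (p = 0.387). For Csnk1d they took 43.8% on L07578_at (exact permutation p = 0.263) and 73.0% on rc_AI013513_at (p = 0.0698), the smallest p of the 6. That time course peaked at CT 12.4, but in the first run alone the share was 11.8% (exact p = 0.778) and in the repeat 24.5% (exact p = 0.473).

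CT 12 was higher than CT 0 in most members by an amount that the pools could not separate from no change. Both CT 12 pools exceeded both CT 0 pools for Bhlhe40, Bhlhe41 and both Csnk1d probe sets, 4 of 5, against 23.2% of all tested probe sets. The 4 are not independent, since they share their arrays and Csnk1d is counted by both of its probe sets. For Csnk1d the pools read 365 and 371 at CT 12 against 301 and 289 at CT 0 on L07578_at. On rc_AI013513_at they read 276 and 268 against 210.5 and 224. The fitted difference was 0.32 on both (95% interval -0.13 to 0.77 and -0.06 to 0.70). Bhlhe40 had 0.29 (-0.23 to 0.81), Bhlhe41 0.22 (-0.40 to 0.84) and Per2 0.08 (-0.66 to 0.82). Limma called 0% of the tested probe sets after adjustment and 8.67% at an unadjusted p under 0.05, no member among them. Read within each run and day, no tested member was higher at CT 12 in all 4 comparisons, against 11.3% of the tested probe sets. Bhlhe40 was higher in 3 of 4, with log2 differences of 0.43 and -0.01 in the first run and 0.40 and 0.33 in the repeat. L07578_at was also higher in 3 of 4, with 0.47 and -0.02 in the first run and 0.09 and 0.73 in the repeat. For rc_AI013513_at they were 0.82 and -0.22 in the first run and -0.04 and 0.74 in the repeat. Without the 3 arrays with high hybridisation controls, where a pool left with 1 run was shifted by the mean run difference of the probe set, the sign turned for Bhlhe41 (-0.19) and rc_AI013513_at (-0.08), and Per2 had 0.42. For Per2 the sign also turned without the 12 h pool (-0.16), in the first run alone and under scaling to the median. Bhlhe41 had 0.028 without the 12 h pool and 0.44 without the 24 h pool, and Bhlhe40 0.51 without 24 h and 0.16 without 36 h.

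**Figure D3:**
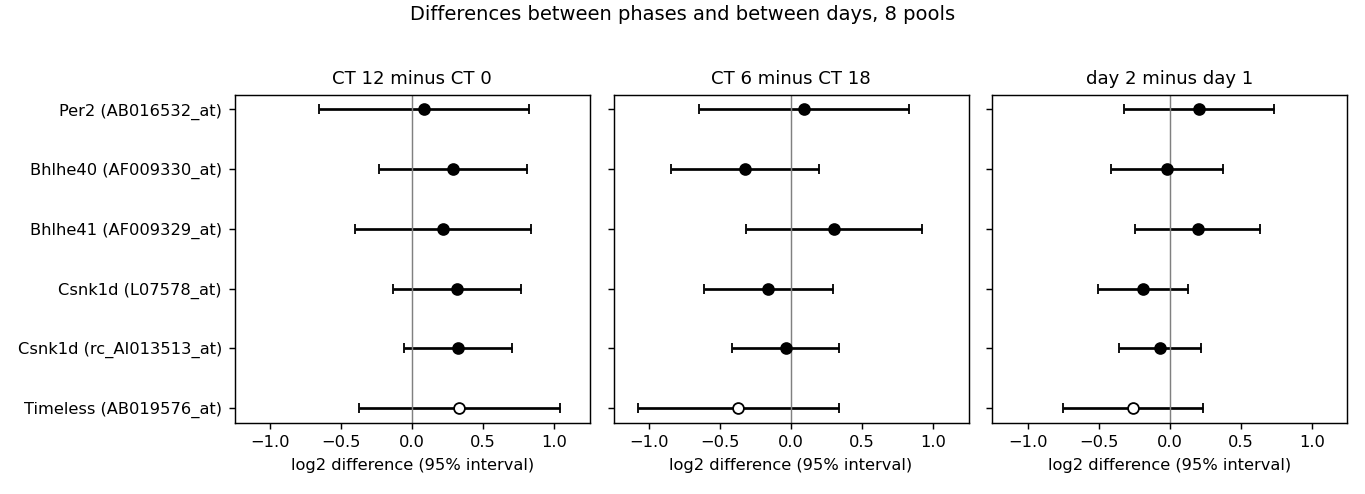
Fitted log2 differences with 95% intervals over 8 pools, CT 12 minus CT 0 (left), CT 6 minus CT 18 (middle) and day 2 minus day 1 (right); the open circle is Timeless, fitted without the level filter. Every interval includes 0.

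CT 6 and CT 18 differed in no consistent direction among the members. The difference, CT 6 minus CT 18, was 0.09 for Per2 (95% interval -0.65 to 0.83), -0.32 for Bhlhe40 (-0.84 to 0.20) and 0.30 for Bhlhe41 (-0.32 to 0.92). For Csnk1d it was -0.16 on L07578_at and -0.04 on rc_AI013513_at. Limma called 0.0229% of the tested probe sets (1) in this comparison and 4.26% had an unadjusted p under 0.05, no member among either. For Per2 it turned with the day, 0.65 on day 1 and -0.47 on day 2. Without the 3 arrays named above, Per2 had -0.21. Without the 18 h pool the sign turned for Per2 (-0.48) and Bhlhe41 (-0.12), and without the 30 h pool for both Csnk1d probe sets (0.029 and 0.050, the latter also without 18 h). Bhlhe40 had -0.027 without the 30 h pool.

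Day 2 and day 1 were not separable for any member. With a day term beside the cosine and sine, the log2 difference was 0.21 for Per2 (95% interval -0.32 to 0.73), -0.02 for Bhlhe40 (-0.41 to 0.37) and 0.19 for Bhlhe41 (-0.25 to 0.64). It was -0.19 (-0.50 to 0.13) and -0.07 (-0.36 to 0.22) for the Csnk1d probe sets. Without the 18 h pool Per2 had -0.10 and Bhlhe41 -0.022, and the value of Bhlhe40, near 0, turned without 6, 12, 30 or 42 h (up to 0.16). Limma called 0% of the tested probe sets after adjustment and 3.96% (173) at an unadjusted p under 0.05, no member among them. The rhythm itself was also compared between days and between runs. Limma called 0% of the tested probe sets in either, with 3.8% (days) and 3.11% (runs) at an unadjusted p under 0.05. The members' unadjusted p lay between 0.167 and 0.954 for the days and between 0.228 and 0.960 for the runs.

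Dbp, a clock-controlled transcription factor, served as a comparator because earlier results of these data had shown its rhythm. On the brightest of its 2 probe sets (J03179_g_at) the Dbp pools read 479 and 516 at CT 0 and 1243 and 1175 at CT 12. Both CT 12 pools exceeded both CT 0 pools, an order found in 23.2% of all tested probe sets. The rhythm of Dbp did not pass the threshold either (limma adjusted p = 0.166). Its CT 12 minus CT 0 difference was 1.28 ± 0.17 (SE, n = 8 pools). Since Dbp was chosen for its rhythm in these libraries, its values stand beside the members' as a description, and no test of the difference is given.

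A split of CT 0 and CT 12 from CT 6 and CT 18 was seen in the repeat after the values had been examined. Readings every 6 h are too sparse to establish a period shorter than a day. All 4 repeat readings of Per2 at CT 0 and CT 12 (411 to 580.5) exceeded all 4 at CT 6 and CT 18 (329 to 401). Bhlhe40 had the same order, 119.7 to 162 against 101 to 111. Such an order occurred in 1.92% of the tested probe sets in the repeat. The log2 difference was 0.43 ± 0.15 for Per2 (SE, 4 against 4 readings; limma adjusted p = 0.642) and 0.35 ± 0.13 for Bhlhe40 (limma adjusted p = 0.669), so neither passed. In the first run the readings overlapped and the difference was 0.28 ± 0.37 for Per2 and 0.18 ± 0.26 for Bhlhe40. The order of Bhlhe40 was lost when the arrays were quantile normalized or scaled to the median, and that of Per2 was kept. Bhlhe41 overlapped in both runs (0.60 ± 0.30 in the first, 0.12 ± 0.13 in the repeat).

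**Figure D4:**
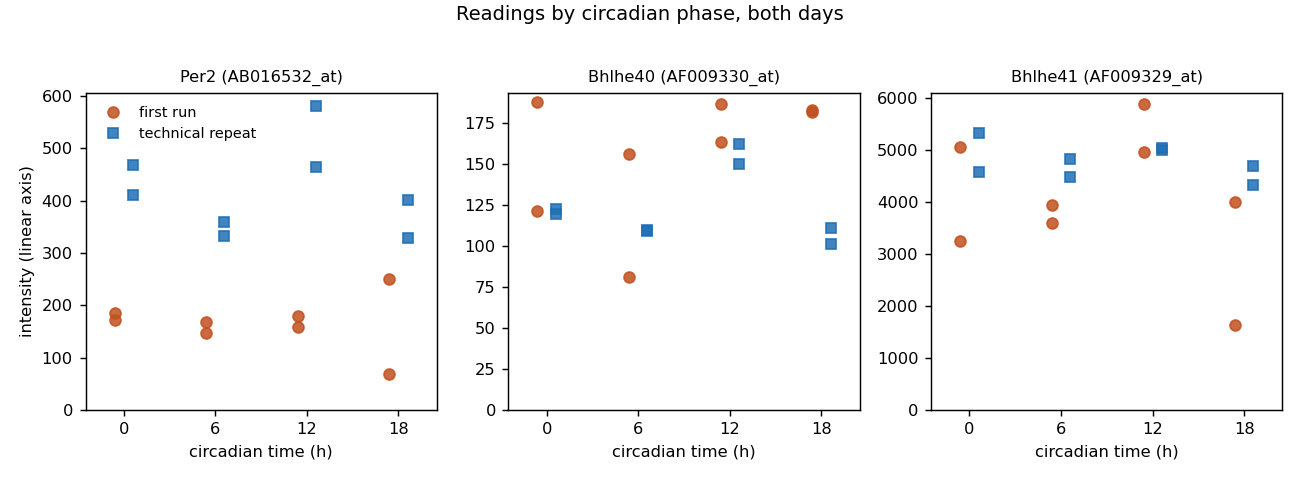
Intensity (linear axis from 0) of Per2, Bhlhe40 and Bhlhe41 by circadian time (h), both days; circles are first-run time points (arrays a and b averaged), squares technical-repeat readings. Per2 and Bhlhe40 squares at CT 0 and CT 12 lie above those at CT 6 and CT 18, while the circles overlap.

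Of the 5 tested probe sets, Per2 and one Csnk1d probe set had a difference between readings of the same pools that passed the threshold. As deposited, this difference exceeded both fitted phase differences in size for every member probe set but L07578_at. That probe set had -0.25 against 0.32 for CT 12 minus CT 0. For Bhlhe40 the sizes were nearly equal (-0.326 between runs, -0.324 for CT 6 minus CT 18), and their order turned under other scalings, given below. For Bhlhe41 they were also close (0.325 and 0.305). The technical repeat minus the first run was 1.38 ± 0.16 for Per2 (SE, n = 8 pools; 2.61-fold; limma adjusted p = 8.01e-05), higher in 8 of 8 pools. For rc_AI013513_at the repeat was lower in 8 of 8, by a log2 difference of -0.87 ± 0.18 (1.83-fold; limma adjusted p = 0.00201). The other Csnk1d probe set had -0.25 ± 0.15 (limma adjusted p = 0.172; lower in 6 of 8). Bhlhe40 had -0.33 ± 0.15 (limma adjusted p = 0.0969; lower in 6 of 8) and Bhlhe41 0.33 ± 0.17 (0.142; higher in 6 of 8). Timeless, against the floor, had -0.86 in the fit over all probe sets (limma adjusted p = 0.0293). This comparison concerns the assay: 48.4% of the tested probe sets passed, 20.9% higher and 27.5% lower in the repeat. Above in all 8 pools were 13.2% and below in all 8 were 17.8%. The share of 2 in 5 members is thus near the background, while the size for Per2 was exceeded in 3.82% of the tested probe sets.

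**Figure D5:**
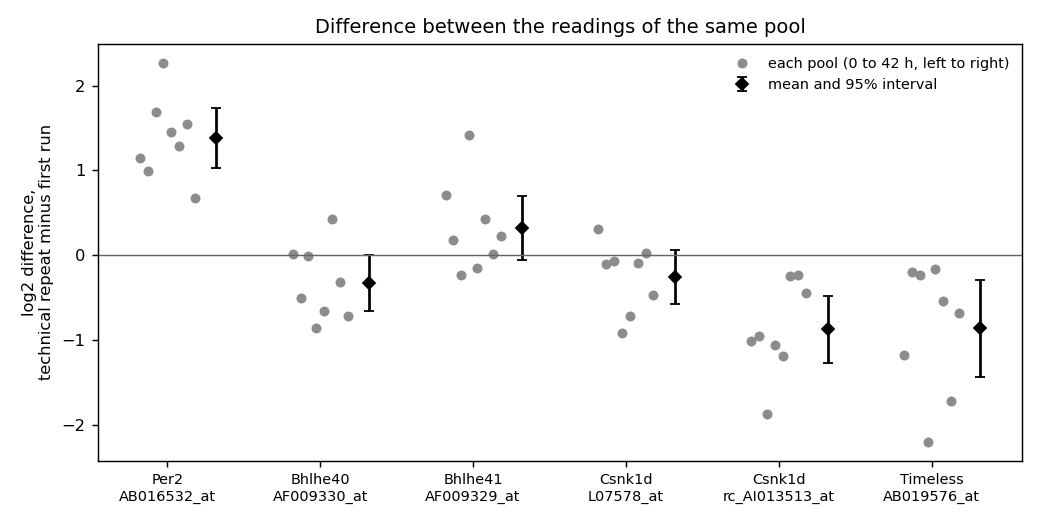
Log2 difference between the technical repeat and the first run for each of the 8 pools (grey) with the mean and its 95% interval (black diamond). Per2 is above 0 in 8 of 8 pools, rc_AI013513_at and Timeless below 0 in 8 of 8, and Bhlhe40, Bhlhe41 and L07578_at have both signs.

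Scaling shifts this comparison and does not turn either call. The median difference over tested probe sets was -0.06 as deposited, 0.03 after quantile normalization and 0.23 after scaling each array to the same median. Of the probe sets called, 43.2%, 52.3% and 73.8% were higher in the repeat under these scalings. Per2 had 1.38, 1.55 and 1.68, and rc_AI013513_at -0.87, -0.68 and -0.58. Bhlhe40 had -0.33, -0.036 and -0.031. Its CT 6 minus CT 18 difference was larger in size after quantile normalization (-0.31) and after scaling to the median (-0.27). Bhlhe41 reached 0.62 and passed under scaling to the median (limma adjusted p = 0.00749), and Bhlhe40 passed without the 30 h pool (-0.43, 0.0306). Of the 4 tested SCN markers, 3 were called lower in the repeat (Avp with -1.52), and Gal was near 0 (-0.02). Over all tested probe sets 27.5% were called lower. The summed marker levels of the runs are given above. Their part in the result was not tested.

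The runs did not rank the pools alike. Over the 8 pools, the first run and the repeat correlated with r = 0.45 for Per2 (Spearman's rho = 0.50), 0.21 for Bhlhe40 (0.19) and 0.44 for Bhlhe41 (0.21). For Csnk1d r was -0.003 on L07578_at (rho = 0.05) and -0.60 on rc_AI013513_at (-0.71), and for Timeless it was -0.34 (-0.34). The Timeless value rests on the 6 h and 12 h readings of the repeat, since the others lay at the floor. The exact permutation p of r lay between 0.120 and 0.995. Without the 2 farthest pools r was 0.45 for Per2 and -0.41 for Bhlhe41. The median over all tested probe sets was 0.09, so a low agreement was common on these arrays.

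The genes whose pool means most resembled a member are given by Pearson's r over 8 pools that share their arrays. For Per2 they were Smad2, a transducer of TGF-beta signals (0.96), Cox7b, a subunit of cytochrome c oxidase (0.95), and the cation channel Trpc1 (0.94). For Bhlhe41 they were Gclm, a subunit of the enzyme of glutathione synthesis (0.97), Scamp1 (0.96) and Ndufb6 (0.96). Within the repeat, Smad2 fell to 0.59 with Per2 and Gclm to 0.38 with Bhlhe41, while Scamp1 kept 0.83. For Bhlhe40 the genes were Pik3cd (0.97), Mettl7b and Hyou1 (both 0.96), with at most 0.36 in the repeat. For L07578_at they were Kcnn1 (0.96), Usp19 (0.95) and Cyss (0.94), and Kcnn1 had 0.21 in the first run and -0.02 in the repeat. For rc_AI013513_at they were Samd1 (0.96), the receptor kinase Grk6 and the hypothalamic transcription factor Nkx2-1 (both 0.94), all with 0.23 to 0.28 in the repeat.

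Genes acting around the members were read from lists by the same rhythm test. Of 24 kinases, phosphatases and ubiquitin ligases acting on PER and CRY proteins, 16 were on the array, 10 were tested and 0 passed, with 0 at an unadjusted p under 0.05. Their median amplitude was 0.15, against 0.16 over all tested probe sets. Only Gsk3a (0.22) of the 10 was higher at CT 12 than at CT 0, and the median difference was -0.18, where the median over all tested probe sets was 0.01 and 51.1% were higher. Ppp2cb (-0.68) and Ppp1cb (-0.56), catalytic subunits of phosphatases, and the kinase Cdk5 (-0.67) were lowest, and none passed. The 2 Csnk1d probe sets, at 0.32, had the opposite sign. Of 15 helix-loop-helix relatives of Bhlhe40 and Bhlhe41, 6 were tested and 0 passed (median amplitude 0.17), 4 of them higher at CT 12, among them Hes3 (0.36), Id3 (0.34) and Id1 (0.33).

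Of 18 other core clock genes, 7 were on the array and 6 were tested. None passed, 2 (Dbp and Bmal1) had an unadjusted p under 0.05, and the median amplitude was 0.26. Bmal1, the gene of an activator named above, had a CT 12 minus CT 0 difference of -0.94. Of 15 CREB and light-responsive genes, 5 were tested and 0 passed. Their median amplitude was 0.31, and Egr1 (0.42 ± 0.13, peak at CT 8.99) had an unadjusted p under 0.05. Of 20 replication fork and cell division genes listed for Timeless, 6 were tested and 0 passed, with Mcm6 at 0.34 ± 0.14 and a median of 0.17.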

How the data were processed

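The authors' deposited values are probe set intensities on a linear scale, already scaled per array. The summary algorithm is not given in the sources used here. Arrays were kept as deposited. Values under 12.1, the 10th percentile of the table, were raised to it, transformed to log2, and averaged over arrays a and b, taken to read the same pool, and then over the runs. The replicate was the pool. Probe sets above the median level (121) were tested, 4370 of 8740 without controls. A cosine and sine of 24 h were fitted by lmFit and eBayes of limma 3.58.1 (R 4.3.3), with p-values adjusted by Benjamini-Hochberg at 0.05. The run comparison tested the 8 differences per pool against 0. Exact permutations used Python 3.11.15. The fits were tested on simulated data.

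The members and gene lists were chosen with earlier results of these data known. Named genes are the members, the 3 genes most correlated with each, Dbp, and up to 4 genes per list by p; Hes3, Id1, Id3, Gsk3a and the lowest kinases were picked for their CT 12 difference after their values were seen. Marker lists for neighbouring neurons, choroid plexus, oligodendrocytes, astrocytes, microglia and vessels had 0 probe sets called rhythmic by limma, with 0 to 2 at an unadjusted p under 0.05. Symbols came from the platform annotation, where 7006 probe sets had 1 symbol. Alternatives were other scalings, filters, floors, variance models, single runs, arrays or pools left out, and a replicate block. The cell line of the title was not analysed here.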

Additional observations from a re-analysis of the deposited data

Results flagged for a closer look

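In 4 sets of readings there was a value far from the others, by Dixon's ratio of the gap to the range at the 95% level, of 24 sets of 8 examined, where chance gives about 1 in 20. All were the lowest reading at 18 h. For Per2 it was 68.4 in the first run and 150.0 as the pool mean. For Bhlhe41 it was 1624 in the first run and 2652 as the pool mean. The repeat of the same pool read 329 and 4332. All 4 rest on 1 first-run array, which had hybridisation controls of 4968, the highest 3'/5' ratios of all 18 arrays (20.9-fold for actin and 35.2-fold for GAPDH), and was the lowest and far from the other time points in 4.16% of the tested probe sets. Its part in these values was not tested.

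The Per2 difference between CT 6 and CT 18 was 0.65 on day 1 and -0.47 on day 2, with the same sign in both runs on each day. On day 1 it was 1.29 in the first run and 0.01 in the repeat. The difference in rhythm between the days was tested with limma and had an unadjusted p of 0.242.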

How the results depend on the processing

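The median correlation between the runs was 0.09 over all tested probe sets, and how far this limited what could be seen was not tested. The rhythm amplitudes of the 5 tested member probe sets stayed below the threshold under all 22 or 23 alternatives, and so did the phase and day differences. The run differences of Per2 (1.07 to 1.68) and rc_AI013513_at (-0.96 to -0.58) kept direction and call under all 16. No alternative was run for Timeless. The cause of the changes below was not tested.

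Scaling to the median gave -0.0017 for Per2 (CT 12 minus CT 0), 0.017 for rc_AI013513_at (CT 6 minus CT 18), and run differences of 0.62 for Bhlhe41, now called (limma adjusted p = 0.00749), and 0.042 for L07578_at. Without arrays a, the Bhlhe40 day difference was 0.0015. Without arrays b, the Bhlhe41 run difference was 0.51 and was called (limma adjusted p = 0.0290). In the first run alone Per2 had -0.077 for CT 12 minus CT 0. In the repeat alone CT 6 minus CT 18 was -0.073 for Per2, 0.048 for Bhlhe40, 0.13 for L07578_at and 0.037 for rc_AI013513_at, whose day difference was 0.28. The fit of single arrays with the run as replicate block and the pool as random block gave 0.043 for the Bhlhe40 day difference and called 1 probe set rhythmic. It changed no member's call. The replicate numbers mark technical runs of the same pools, and the consensus correlation of arrays within a pool was -0.04.

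Without the 3 arrays with high hybridisation controls, chosen after seeing the data, CT 12 minus CT 0 was -0.19 for Bhlhe41 and -0.077 for rc_AI013513_at. CT 6 minus CT 18 was -0.21 for Per2, 0.032 for L07578_at and 0.070 for rc_AI013513_at, and the day difference 0.026 for Bhlhe40 and 0.094 for rc_AI013513_at.

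Over all tested probe sets, limma called 2 rhythmic and 1 for CT 12 minus CT 0 with the level filter at the 75th percentile and with trend and robust options, and 1 and 2 in the repeat alone. For CT 6 minus CT 18 it called 0 with no level filter, without arrays a, in either run alone and without the 3 arrays.

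With each pool left out in turn, CT 12 minus CT 0 ranged from -0.16 (without 12 h) to 0.24 for Per2, from 0.028 (without 12 h) to 0.44 for Bhlhe41 and from 0.16 (without 36 h) to 0.51 for Bhlhe40. CT 6 minus CT 18 was -0.027 for Bhlhe40 without 30 h. It ranged from -0.48 (without 18 h) to 0.38 for Per2, from -0.12 (without 18 h) to 0.45 for Bhlhe41, from -0.39 to 0.029 for L07578_at and from -0.13 to 0.050 for rc_AI013513_at. The day difference ranged from -0.10 (without 18 h) to 0.41 for Per2, from -0.16 to 0.16 for Bhlhe40 and from -0.022 (without 18 h) to 0.36 for Bhlhe41. The run difference of Bhlhe40 ranged from -0.43 (without 30 h) to -0.25, and without 30 h it was called (limma adjusted p = 0.0306). Counts over all tested probe sets were 0 to 0 for CT 6 minus CT 18 and 0 to 1 for the day.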
